A study of Mus musculus with 28 samples.

Results

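The genes described here encode the factors that start and extend protein synthesis on the cytosolic ribosome. They were chosen by symbol, as every gene whose name begins with Eif or Eef and a number, with Naca, Btf3, Tpt1 and Pabpc1 added. In all, 64 of the 18274 gene symbols in the 5 deposited tables met this rule. The tables compare hair follicle stem cells of young mice, 6 months old, with those of old mice, 24 months old, for RNA, open chromatin, 2 histone marks and RNA polymerase II (Pol2). All mice carried the strain label 132-C67BL/6J, and every sample was sorted from trypsin-treated skin as cells positive for CD34 and α6-integrin, with no transgene, treatment or other genotype named. RNA was measured in 3 young and 3 old samples, open chromatin by ATAC-seq in 4 and 4, H3K27me3 in 3 and 3, and H3K4me3 and Pol2 in 2 and 2 each, 28 libraries in all. The 2 ages of an assay differ in age alone as far as the labels say, and the labels do not state the sex of the mice.

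Translation begins when eIF2 brings the initiator tRNA to the small ribosomal subunit, while eIF3, eIF1, eIF1A and eIF5 hold that complex together and help it choose the start codon. The eIF4 factors bind the cap of the mRNA, unwind its leader and join it to poly(A)-binding protein (Pabpc1). Elongation then runs on eEF1, which delivers aminoacyl-tRNA, and eEF2, which moves the ribosome along. Cells slow the process through kinases of eIF2, through Eif4ebp proteins that hold the cap-binding protein Eif4e, and through Eef2k, which phosphorylates eEF2. Hair follicle stem cells are known for a low rate of protein synthesis at rest.

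Sorted as a set, the genes fell into 8 roles: 13 for cap binding and the eIF4 helicase, 12 for eIF3, 9 for eIF2, its exchange factor eIF2B and the separate factors Eif2a and Eif2d, 8 for start site choice and scanning, 8 inhibitors and kinases, 7 for elongation, 4 methyltransferases of elongation factors and 3 for nascent chains with Tpt1. Roles were set by gene name, so they are loose. Start site choice includes Eif5b and Eif6, which act in subunit joining, and elongation includes the synthetase scaffold Eef1e1. H3K4me3 peaks were annotated to 60 of the 64, Pol2 peaks to 24 and H3K27me3 peaks to 22. RNA rows were found for 10 genes and ATAC-seq rows for 7. No gene had rows in all 5 tables, and 18 had rows for H3K4me3 only. Eef2, Eif2s1 and Eif5a, 3 central factors, had no row under their own symbols and are therefore not among the 64.

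The defining markers of the sorted cells were present at the chromatin level. H3K4me3 promoter peaks stood at 10 of 10 stem cell markers, among them Cd34, Itga6 and Krt15, and at 0 of 7 immune markers. They also stood at 3 of 6 fibroblast markers, 1 of 3 endothelial, 1 of 4 melanocyte and 3 of 6 sebaceous and interfollicular markers. Pol2 promoter peaks stood at 9 of the 10 stem cell markers and at 0 of all the others. These tables give 1 mean per age, so marker levels by sample were not tested. In RNA, 1 of the 7 immune markers was listed, Cd74 of antigen presentation, called lower in old cells at −1.36 (adjusted p 2.36e-06) in the authors' deposited table. The collagen gene Col1a2, 1 of the 6 fibroblast markers, was listed at −0.39 (adjusted p 0.0861) and the stem cell marker Nfatc1 at −0.34 (adjusted p 0.0948) in the authors' deposited table, neither called. The part of other cells in the RNA values of translation factors was not tested.

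The promoters of 6 genes that return in the results below are shown first. The age comparisons did not use these sequences. Eef1b2, Tpt1, Naca and Btf3 were higher in old RNA, while the elongation factor genes Eef1a1 and Eef1a2 carried different chromatin marks although they encode closely related proteins. The sequences are RefSeq's on GRCm38.p6, from 100 bases before the annotated start to 25 bases after it, on the strand of the gene. Capitals mark the first 25 transcribed bases. The windows are chr1:63176731-63176855 (plus strand) for Eef1b2, chr14:75845156-75845280 (plus) for Tpt1, chr10:128035246-128035370 (plus) for Naca, chr13:98316943-98317067 (minus) for Btf3, chr9:78481700-78481824 (minus) for Eef1a1 and chr2:181156991-181157115 (minus) for Eef1a2.
Eef1b2: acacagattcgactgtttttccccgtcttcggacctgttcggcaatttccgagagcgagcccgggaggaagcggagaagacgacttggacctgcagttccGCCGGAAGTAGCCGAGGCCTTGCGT
Tpt1: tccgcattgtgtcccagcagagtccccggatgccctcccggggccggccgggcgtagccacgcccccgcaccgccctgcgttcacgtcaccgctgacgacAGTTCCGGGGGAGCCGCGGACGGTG
Naca: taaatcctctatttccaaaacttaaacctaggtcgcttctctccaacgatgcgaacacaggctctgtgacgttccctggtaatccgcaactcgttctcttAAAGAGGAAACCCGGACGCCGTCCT
Btf3: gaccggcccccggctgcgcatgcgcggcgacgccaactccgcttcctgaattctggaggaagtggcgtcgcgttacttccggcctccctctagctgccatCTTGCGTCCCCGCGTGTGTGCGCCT
Eef1a1: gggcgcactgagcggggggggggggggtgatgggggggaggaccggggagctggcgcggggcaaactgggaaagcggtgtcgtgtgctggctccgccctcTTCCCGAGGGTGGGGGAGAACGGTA
Eef1a2: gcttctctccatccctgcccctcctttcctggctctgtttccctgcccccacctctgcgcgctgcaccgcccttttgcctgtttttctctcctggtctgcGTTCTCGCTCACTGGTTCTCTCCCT
Transcripts of many ribosomal proteins and elongation factors are known to begin with a C and a run of pyrimidines, which ties their translation to mTOR signalling. A C followed by at least 4 further C or T, beginning within 10 bases of the annotated start on the strand of the gene, was found in 18 of the 51 translation factor genes that RefSeq's promoter table holds. That is 35.3%, beside 30.8% of all 27025 promoters and 57.6% of 66 ribosomal protein genes. Of the 7 genes with a window among those listed in RNA, 1 held such a run, Naca, with CTCTT from 5 bases before the start. That run ends at the base before the annotated start, so the annotated Naca transcript does not begin with it. Eef1a1 held the run CCCTCTTCCC, also from 5 bases before the start. It crosses the annotated start, where the first transcribed base is a T and not a C. Eef1b2, Tpt1 and Btf3 held none at the annotated start. The share in translation factors was thus near that in all genes, and a missing match says only that these letters are not in this window. A match can lie wholly or partly before the annotated start, so it does not show that a transcript begins with the run.

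TATAAA, searched 20 to 40 bases before the start on the strand of the gene, was found in 0 of the 51 promoters and in 2.22% of all promoters. The windows were rich in GC, with a median of 62.3% over 300 bases beside 52.7% in all genes, and held a median of 23 CpG pairs beside 7. Tpt1 had 40 CpG pairs and Eef1a1 22. Eef1a2 had 8.

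In the RNA comparison of old with young cells, the authors' deposited table leaves out genes with an adjusted p above 0.1. It gives 1 fold change per gene and no value per sample, so no spread between samples can be shown. Of the translation factors, 10 were listed, all with a higher level in old cells, and 9 were called at an adjusted p under 0.05 in the authors' deposited table. Of the 597 genes listed there, 38% were called higher and 56.8% in either direction, and 60.5% of listed genes were higher in old cells. The sign of the change in the 54 genes that are not listed is unknown. RNA came from pools of sorted cells, in which fewer cells of a type and less RNA per cell cannot be told apart.

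Among the listed genes, 3 are named for the elongation factor eEF1. Eef1e1, a scaffold protein of the aminoacyl-tRNA synthetase complex, had the largest change at a log2 fold change of 0.67 (SE 0.20), or 1.59-fold, with an adjusted p of 0.0403 and a mean normalized count of 294 in the authors' deposited table. Eef1b2, the exchange factor that recharges eEF1A, stood at 0.60 (SE 0.11), or 1.51-fold, with the smallest adjusted p of the group, 4.77e-05, in the authors' deposited table. Eef1g, the structural subunit of the same complex, stood at 0.40 (SE 0.11, adjusted p 0.0218), with one of the highest mean counts of the group, 14487, in the authors' deposited table. Eef1e1 was by far the least abundant of the 10, and its SE was the widest.

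The eIF3 complex, the scaffold on which the initiation complex assembles, had 3 of its genes listed. In the authors' deposited table the log2 fold change was 0.42 for Eif3m (SE 0.11, adjusted p 0.0209), 0.40 for Eif3h (SE 0.12, adjusted p 0.0351) and 0.40 for Eif3e (SE 0.12, adjusted p 0.0413). All were called higher in old cells, at nearly the same size, beside 38% of all listed genes called higher. Eif2a, an initiator tRNA-binding factor separate from the eIF2 complex, was listed at 0.34 (SE 0.12) with an adjusted p of 0.0928 in the authors' deposited table, and did not pass.

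All 3 genes of the nascent chain group were called higher, beside 38% of all listed genes. Tpt1, which encodes the translationally controlled tumour protein, stood at 0.53 (SE 0.11, adjusted p 0.000788) and had the highest mean normalized count of the 10, 15669, in the authors' deposited table. Btf3 and Naca encode the pair of subunits of the nascent polypeptide-associated complex, which meets new chains at the ribosome exit. They rose by like amounts in the authors' deposited table, Btf3 by 0.40 (SE 0.12, adjusted p 0.0424) and Naca by 0.37 (SE 0.11, adjusted p 0.0327). Tpt1, Naca, Btf3 and Eef1b2 have processed pseudogenes of near-identical sequence, and the sources do not state how reads shared with them were counted, so their values are uncertain to that extent.

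**Figure D1:**
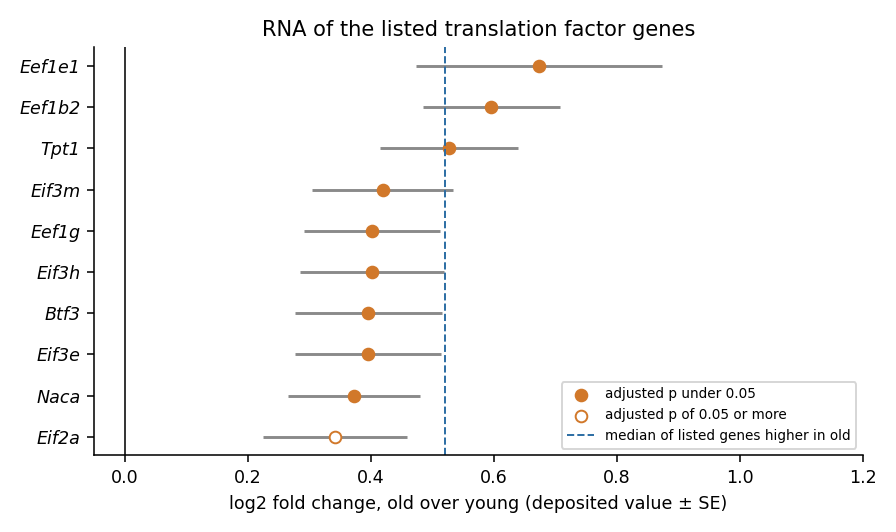
RNA of the 10 listed translation factor genes, as the log2 fold change of old over young with the deposited standard error as the bar; filled points have an adjusted p under 0.05. All 10 lie above 0, between 0.34 and 0.67, and 7 of them lie between 0.34 and 0.42.

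Sizes in the group were modest beside other listed genes. The median log2 fold change of the 10 was 0.40, against 0.52 for the 361 listed genes that were higher in old cells, in the authors' deposited table. Abundance was high instead, with a median mean normalized count of 6393 against 1070 over all listed genes, and the median SE was 0.12 against 0.16. Ribosomal protein genes, the nearest other group, had 49 listed genes with 41 called higher and a median of 0.52 in the authors' deposited table. Of 32 further genes of termination, recycling and control of translation, 3 were listed and all were called. Over all listed genes 56.8% were called in either direction and 38% higher. Paip2, an inhibitor of poly(A)-binding protein, was higher at 0.52, whereas Mknk2, a kinase of Eif4e, and Pabpc4, a second poly(A)-binding protein, were lower at −0.57 and −0.45 in the authors' deposited table.

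H3K4me3 marks promoters of active genes, and the comparison asks how it differs with age. It was lower in old cells at 58 of 58 translation factor promoters, each taken as the strongest peak within 1 kb of a start, at a false discovery rate (FDR) under 0.05 in the authors' deposited table. This is the state of the whole table, in which 97.9% of 11585 genes were called lower and 0.0259% higher. The median log2 fold change was −1.45 over the translation factors and −1.43 over all genes, and 40 of the 58 lay within the middle range of all genes, between the quartiles of −1.57 and −1.3. The sources do not state how the authors scaled values between libraries, so this common shift cannot be told apart from a scaling difference, and members are described relative to it.

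The 5 steepest decreases were at Eif3d, Eif4g1, Eif4e, Eif4a1 and Eif3m. Eif3d, an eIF3 subunit that can itself bind the cap, fell from a level of 11.95 in young to 10.17 in old cells on the log2 scale, a log2 fold change of −1.78 (3.43-fold lower, FDR 3.89e-08) in the authors' deposited table. Eif4g1, the scaffold of the cap complex, fell from 11.33 to 9.61 (−1.72), and its partners Eif4e, the cap-binding protein, and Eif4a1, the helicase, both fell by 1.67 in the authors' deposited table. Eif3m, called higher in RNA, was next at −1.63. Eif4g1, Eif4e and Eif4a1 thus stood below the lower quartile of all genes. This did not hold for every gene of the cap complex, since its other helicase gene, Eif4a2, stood at −1.42, near the all-gene median.

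The shallowest decreases were at 5 genes of different roles. Eif2b3, a subunit of the exchange factor of eIF2, fell from 10.18 to 9.05 (−1.13, 2.19-fold lower, FDR 0.000384) in the authors' deposited table. Eif2d, an alternative initiation factor, stood at −1.17, Eif4ebp1, an inhibitor of Eif4e, at −1.19, and Eif2ak3, the kinase PERK that answers stress in the endoplasmic reticulum, at −1.21, as did Eif3e, in the authors' deposited table. These 5 were still called lower, and each stood above the upper quartile of all genes.

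By role, medians ran from −1.58 for the 11 cap-binding and helicase genes, over −1.55 for start site choice, −1.48 for the eIF2 and eIF2B role, with Eif2d, −1.46 for elongation and −1.45 for eIF3, to −1.39 for both the inhibitors with kinases and the methyltransferases and −1.36 for the 3 nascent chain genes. The ranges overlapped, since the cap-binding genes spanned −1.72 to −1.42 and the inhibitors and kinases −1.57 to −1.19. With 2 samples per age and only group means deposited, differences between roles were not tested. Among elongation factors Eef1a1 stood at −1.48, Eef1d, a second exchange subunit, at −1.43, and Eef1g at −1.32, in the authors' deposited table. Near the all-gene median were Eif3a, the largest eIF3 scaffold subunit, at −1.43, Eif2ak4, the kinase GCN2 that senses uncharged tRNA, at −1.39, and Eef2k at −1.35. Pabpc1, at −1.60, stood below the lower quartile.

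**Figure D2:**
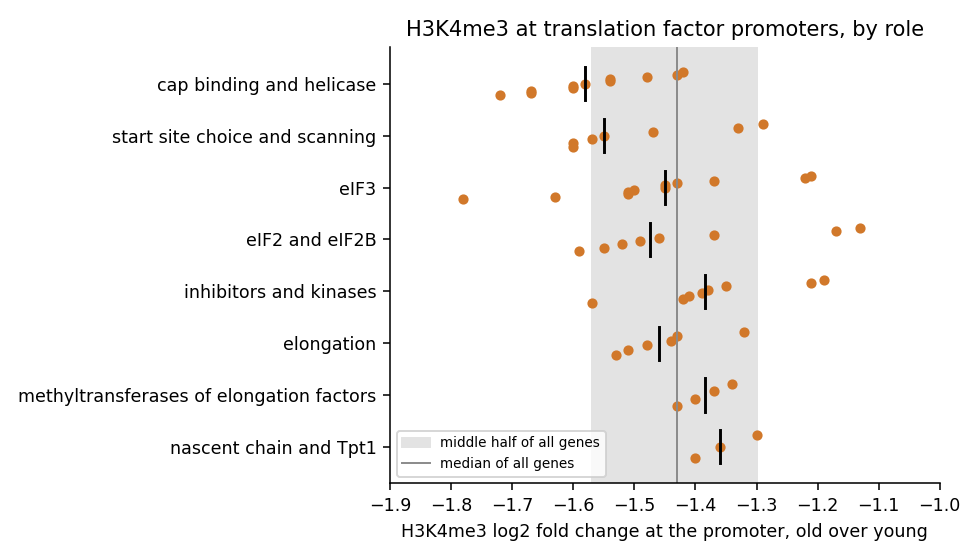
H3K4me3 log2 fold change of old over young at the promoters of 58 translation factor genes, 1 point per gene and 1 row per role, with a black bar at each role's median; the grey band spans the quartiles of all genes, −1.57 to −1.3, and the grey line their median. Every point is below −1.1, 40 of the 58 lie in the band, and the lowest is Eif3d at −1.78.

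The 6 genes without such a peak were Eef1a2, Eif1a, Eif2a, Eif3j2, Eif4a3l1 and Eif4e3. For Eif2a the RefSeq start lay under a peak annotated to its neighbour Serp1, which stood at −1.41 in the authors' deposited table. In the same way the start of Eef2 lay under a peak annotated to Pias4 (−1.40), that of Eif5a under 1 annotated to Gps2 (−1.53) and that of Eif2s1 under 1 annotated to Atp6v1d (−1.43), all called lower in the authors' deposited table. Of 59 symbols in RefSeq's promoter table that meet the naming rule, 55 had a start under an H3K4me3 peak, and 8 of these only under a peak annotated to another gene. The annotation to the nearest start therefore hides central factors from a search by symbol.

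The 9 listed RNA genes with an H3K4me3 promoter peak were all called lower for H3K4me3, between −1.63 and −1.21, as were 97.9% of all genes, while their RNA was listed as higher. Eef1b2 stood at 0.60 in RNA and −1.44 in H3K4me3, and Tpt1 at 0.53 and −1.40, in the authors' deposited tables. Naca stood at 0.37 and −1.36. Relative to the all-gene median of H3K4me3 these 3 genes stood at −0.01, 0.03 and 0.07, so their H3K4me3 values are those of the table as a whole. The 2 assays were scaled separately, so only the direction within each table can be set side by side.

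Pol2 binding asks how much polymerase sits at a promoter at each age. Of 21 translation factor genes with a Pol2 promoter peak, 13 were called lower in old cells and 0 higher in the authors' deposited table. That is 61.9%, beside 87.6% of 3168 genes in the table. Ribosomal protein genes had 38 of 61 called, 62.3%. The median log2 fold change was −2.13 for translation factors, −1.77 for ribosomal protein genes and −2.38 for all genes, so the shift was again shared by the table, and the sources do not state its scaling.

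The largest negative values were at promoters below the group's median Pol2 level of 8.41. Eif6, which keeps the large ribosomal subunit from joining too early, fell from a Pol2 level of 7.40 in young to 2.59 in old cells, a log2 fold change of −4.81 (28.1-fold lower, FDR 0.00562) in the authors' deposited table. This old level was the lowest of the group, so the size of the Eif6 fold change rests on few counts. Eif3d fell from 7.90 to 4.27 (−3.63, FDR 8.03e-05), Eif4e2, a cap-binding protein that represses translation, from 8.90 to 5.32 (−3.58, FDR 0.03), and Eif2ak3 from 7.82 to 4.46 (−3.35, FDR 0.000145), in the authors' deposited table. Eif2ak4 went from 8.17 to 4.96 (−3.21) but was not called, at an FDR of 0.183. Eif3d was thus the lowest gene of the group for H3K4me3 and among the lowest for Pol2.

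At the promoter peaks with the highest Pol2 levels the values were closest to 0. Eif5, which triggers GTP hydrolysis by eIF2 at the start codon, went from 11.66 to 11.06, a log2 fold change of −0.61 (FDR 0.483), and Eef1a1, the main carrier of aminoacyl-tRNA, from 12.18 to 11.49 (−0.69, FDR 0.413), in the authors' deposited table. Eif4a2, a helicase of the cap complex, stood at −1.14 (FDR 0.15), Tpt1 at −1.22 (FDR 0.128), Eif4g2, which drives initiation without the cap-binding protein, at −1.26 (FDR 0.0929) and Eif1, a guard of start codon choice, at −1.38 (FDR 0.0761), in the authors' deposited table. None of these 6 was called. Their peaks were 4.023 to 10.498 kb wide, so each value covers more than the promoter. Eef1b2, at a middling level, missed the threshold narrowly with −1.63 and an FDR of 0.0504.

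Between these ends lay other initiation genes that were called. Eif5b, which joins the subunits, stood at −2.80, Eif4e at −2.50, Eif3a at −2.49, Eif4h, a helper of the helicase, at −2.13, Eif2s2, the beta subunit of eIF2, at −1.97, Pabpc1 at −1.87 and Eif3j1, a loosely bound eIF3 subunit, at −1.69, in the authors' deposited table. The remaining pair, the Eif4e carrier Eif4enif1 and the methyltransferase Eef1akmt1, stood at −2.37 and −2.36.

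The order followed the level and also the width of the peak. Over the 21 genes the Spearman correlation of the Pol2 fold change with the mean Pol2 level of both ages was 0.80. Over all genes it was 0.51. With peak width the correlation was 0.84 over the 21 genes and 0.44 over all genes. All are descriptions across genes whose measures come from the same libraries, and level and width were not separated. At a level of at least 10, 0 of 6 translation factors were called, with a median of −1.18, beside 58.2% of 330 genes with a median of −1.55. A level of at least 11 left 5 translation factors, 0 called, beside 32.5% of 151 genes. The same 6 genes had peaks at least 4 kb wide, among which 50.9% of 285 genes were called. These splits were chosen after seeing the data, and with 6 genes the difference from the background was not tested.

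**Figure D3:**
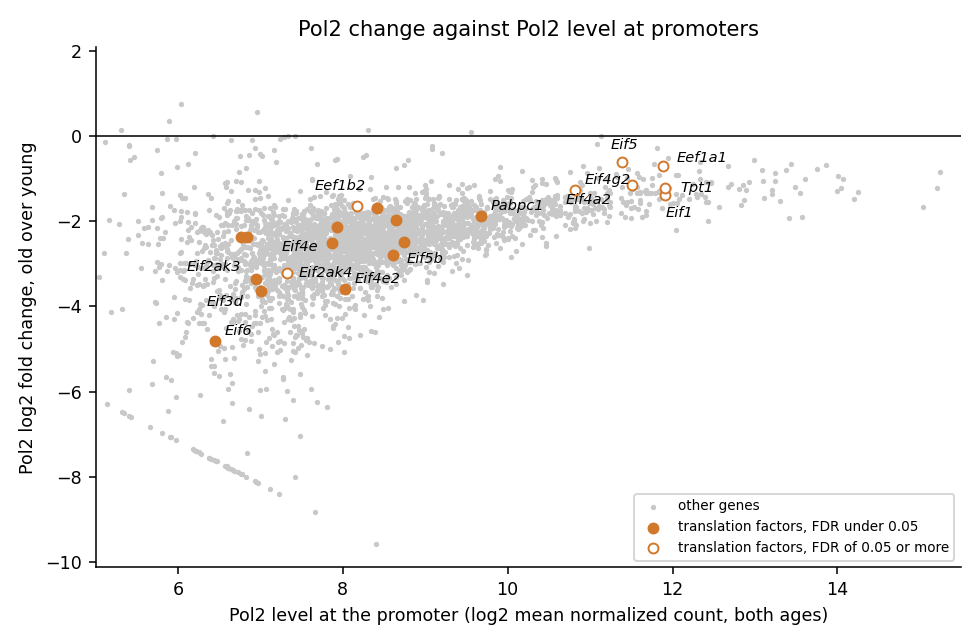
Pol2 log2 fold change of old over young against the mean Pol2 level of both ages on the log2 scale, at the strongest promoter peak of each gene; grey points are other genes and orange points the 21 translation factors, filled where the FDR is under 0.05, and 17 other genes below a level of 5 lie outside the plot. The 6 translation factors above a level of 10 are all open circles, between −1.38 and −0.61, and Eif6 at 6.45 is the lowest.

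Another 3 genes had no Pol2 promoter peak but peaks elsewhere: Eef2k 6.796 kb before its start (−2.22, FDR 0.0092), Eif4b 13.264 kb into the gene (−2.23, FDR 0.0305) and Eif1a (−1, FDR 0.304), in the authors' deposited table. Matching to RefSeq starts added Eif4a1, whose start lay under a Pol2 peak annotated to Cd68, at a level of 11.83 and a log2 fold change of −0.91 (FDR 0.234) in the authors' deposited table. Eef2 lay under a peak annotated to Dapk3 (level 11.59, −0.96, FDR 0.227) and Eif5a under 1 annotated to Gps2 (level 11.18, −1.18, FDR 0.167). None of these 3 high peaks was called. A peak that spans neighbouring genes cannot be split between them.

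Pabpc1 and Eif4g2 had Pol2 peaks along the gene as well as at the start. The start peak of Pabpc1 fell from 10.33 to 8.46 (−1.87, FDR 0.0149), while 7 further peaks, centred 3.787 to 11.343 kb from it, differed by −0.47 to 0.49 with no FDR below 0.646 in the authors' deposited table. At Eif4g2 the start peak stood at −1.26 and was not called (FDR 0.0929), and the 4 further peaks, 3.33 to 12.178 kb away, at −0.09 to 0.33, with no FDR below 0.747 in the authors' deposited table. The further peaks were weaker than the start peak, at levels of 5.97 to 7.97 in Pabpc1 and 5.92 to 9.86 in Eif4g2.

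This difference between start and body was common in the table. Among 443 genes with a start peak and further peaks inside the gene, the median was −1.92 at the start and −0.90 further in, and in 363 of them, 81.9%, the further peaks were less low. Of 1493 such further peaks 16% were called lower, beside 0 of the 11 in Pabpc1 and Eif4g2. Peaks were joined to a gene by position only, and some lie at annotated starts of short transcripts inside it.

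**Figure D4:**
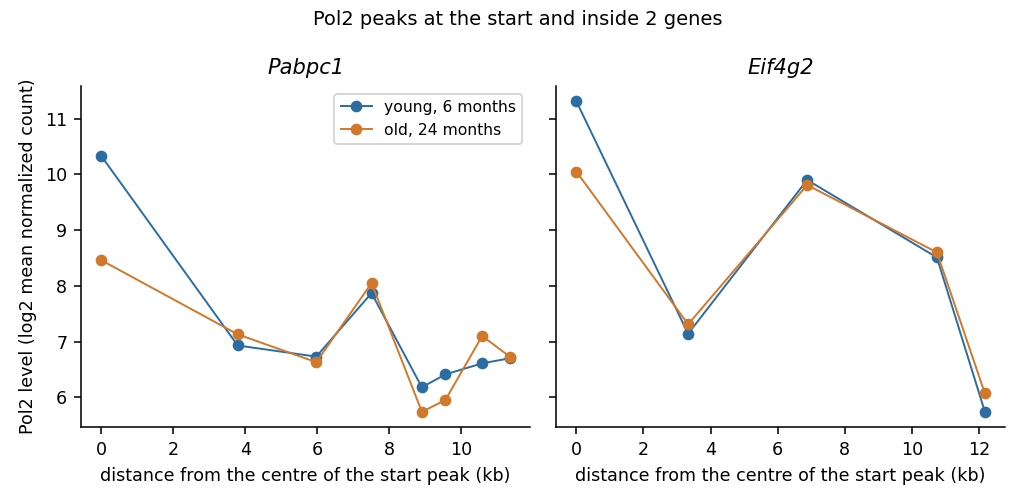
Pol2 level on the log2 scale in young (blue) and old (orange) cells at each Pol2 peak of Pabpc1 and Eif4g2, against the distance of the peak's centre from that of the start peak in kb; points are the deposited group means, joined by lines for reading only. The ages are apart at 0 kb, by −1.87 in Pabpc1 and −1.26 in Eif4g2, and within 0.49 of each other at all 11 further peaks.

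H3K27me3, the mark left by Polycomb, is known from silent developmental genes. It covered a region within 1 kb of a start in 3 of the 64 genes, and 0 of the 3 were called, in a table where 13.6% of 4580 gene promoters were called lower and 2.42% higher. Eef1a2, the form of eEF1A known from neurons and muscle, lay inside a domain of 18.201 kb, chr2:181147990-181166190, at a level of 10.86 in young and 10.85 in old cells (−0.02, FDR 0.979) in the authors' deposited table. It had neither an H3K4me3 nor a Pol2 peak. Eef1a1 had both, and its single H3K27me3 peak was weak and 43.103 kb away (level 4.76, −0.43, FDR 0.889) in the authors' deposited table.

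Among the promoters with an H3K27me3 peak within 1 kb, Eif3d stood next to a second large domain. The H3K27me3 peak, 18.898 kb long at chr15:77971781-77990678, began 0.957 kb before the Eif3d start, overlapped its H3K4me3 peak at chr15:77968314-77972888 and differed by 0.13 between ages (FDR 0.677) in the authors' deposited table. The third promoter, that of Eif4g3, a second scaffold of the cap complex, had a small peak at −0.48 (FDR 0.57). Large domains also lay beyond the 1 kb limit. That with Eif1b as its nearest start was 20.933 kb long, placed in a 3' UTR and 3.518 kb before the start (0.21, FDR 0.404) in the authors' deposited table. That of Eif4a2 was 9.48 kb long and 1.191 kb before the start (−0.02, FDR 0.973) in the authors' deposited table.

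Counting every peak annotated to the 22 genes, 7 of 121 H3K27me3 peaks were called, 5.79% beside 5.26% of all 67985 peaks. Of the 7, 6 were higher and 1 lower, beside 2.66% and 2.6% of all peaks. They lay in 5 genes of 22, beside 21.3% of all genes with a peak, so neither share stands out. Higher in old cells were peaks annotated to Eef1e1 (0.96), Eif1b (1.14), Eif2s2 (1.35 and 1.59) and Eif3d (2.43 and 1.15), and lower was 1 annotated to Eif3f (−0.72), in the authors' deposited table. All were 7.186 to 64.008 kb from the start, and all but the Eef1e1 peak, which was intergenic, lay inside other genes, Myrip for Eif1b, a for Eif2s2, Cacng2 for Eif3d and Gm26599 for Eif3f. The gene name is thus the nearest start only. The largest, 2.43 at Eif3d, was also weak, going from a level of 3.79 to 6.22.

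Eef1e1 carried 19 of these peaks, all before its start and none nearer than 16.795 kb. Of the 19, 1 was called, at chr13:38692829-38696450, with levels of 7 in young and 7.95 in old cells (FDR 0.012) in the authors' deposited table. Its RNA was listed as higher in old cells and its H3K4me3 stood at −1.51.

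Open chromatin was tested with counts per library. The ATAC-seq table is itself a selection, since it leaves out peaks with a deposited −log10 p under 2 or a log2 ratio between the ages under 0.50 in size. It held 10 peaks annotated to 7 translation factor genes, 8 lower and 2 higher in old cells, and none lay within 1 kb of a start. Totals over all listed peaks were 2456110 to 2773284 in young and 1572998 to 1946804 in old libraries. They cover listed peaks only, so the depth of the whole libraries is unknown. Fold changes without scaling carry any difference in depth, and its part in them was not tested. Without scaling, edgeR called 3 of the 10 lower and 0 higher, beside 46.4% lower and 5.43% higher among all 7849 listed peaks. With TMM scaling, which recentres the list by a median of 0.59 on the log2 scale, it called 1 lower and 2 higher, beside 0.701% and 13.9%. Because the peaks were listed for their difference between these same libraries, the values are given as a description.

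The clearest peak was annotated to Eef2kmt, a methyltransferase of eEF2, 96.095 kb before its start at chr16:5352051-5352800, in intergenic sequence. Its counts were 769, 876, 793 and 834 in the young libraries and 514, 339, 308 and 343 in the old. All young libraries lay above all old ones. The mean was 818 ± 47.1 (SD, n = 4) in young and 376 ± 93.3 (SD, n = 4) in old, a log2 fold change of −1.12 without scaling (edgeR FDR 0.00268) and −0.54 with TMM (edgeR FDR 0.0458). It was called lower under both.

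A peak 4.695 kb before the start of Btf3, chr13:98321701-98322400, had counts of 583, 670, 749 and 923 in young and 567, 548, 436 and 271 in old libraries. The ages did not overlap, though the lowest young and the highest old library were close. Its log2 fold change was −0.68 without scaling (edgeR FDR 0.028) and −0.11 with TMM (edgeR FDR 1.00). The call was lost without young replicate 3 (edgeR FDR 0.052) or 4 (edgeR FDR 0.059) and without old replicate 3 (edgeR FDR 0.058) or 4 (edgeR FDR 0.0562). Btf3 RNA was listed as higher in old cells.

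Eef2k, the kinase that brakes elongation, had 3 listed intronic peaks that did not go one way. The narrowest, chr7:120866851-120867000 in intron 2, had counts of 34, 86, 42 and 61 in young and 19, 24, 32 and 28 in old libraries. Its ages did not overlap, at a log2 fold change of −1.11 without scaling (edgeR FDR 0.0388) and −0.50 with TMM (edgeR FDR 0.902). It was called only in the fit without young replicate 1 (edgeR FDR 0.0362) among the 8 fits without 1 library, and stood between 0.0524 and 0.104 in the others. A neighbour in the same intron, chr7:120863451-120863950, ran from 183 to 315 in young and from 100 to 241 in old libraries and stood at −0.64 without scaling (edgeR FDR 0.0654). The ages overlapped there, and the peak was called without old replicate 1 (edgeR FDR 0.0393).

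The third Eef2k peak, chr7:120897701-120898300 in intron 16, went the other way. Its counts were 318, 189, 344 and 281 in young and 416, 436, 416 and 341 in old libraries, with the lowest old library just under the highest young one. It stood at 0.51 without scaling (edgeR FDR 0.0622) and 1.09 with TMM (edgeR FDR 0.00144). The other peak higher in old cells was in intron 3 of Eif4e3, a cap-binding homologue, at chr6:99637451-99637800, with 136, 115, 91 and 80 in young and 120, 133, 202 and 194 in old libraries. Its ages overlapped, and it stood at 0.62 without scaling (edgeR FDR 0.0772) and 1.23 with TMM (edgeR FDR 0.00784).

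The remaining peaks belonged to Eif1, Eif1ax, the X-linked form of eIF1A, and Eif3h, and none was called under either scaling. Eif1 had a peak 14.346 kb before its start with 109 to 145 counts in young and 50 to 101 in old libraries, without overlap (−0.67, edgeR FDR 0.0752). Eif1ax ran from 240 to 305 in young and from 87 to 267 in old libraries (−0.53, edgeR FDR 0.0935), with overlap. The 2 peaks nearest to Eif3h lay 159.111 and 218.861 kb from its start and stood at −0.55 (edgeR FDR 0.0806) and −0.58 (edgeR FDR 0.119). In all, the ages did not overlap at 4 of the 10 peaks, beside 40.7% of all listed peaks.

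**Figure D5:**
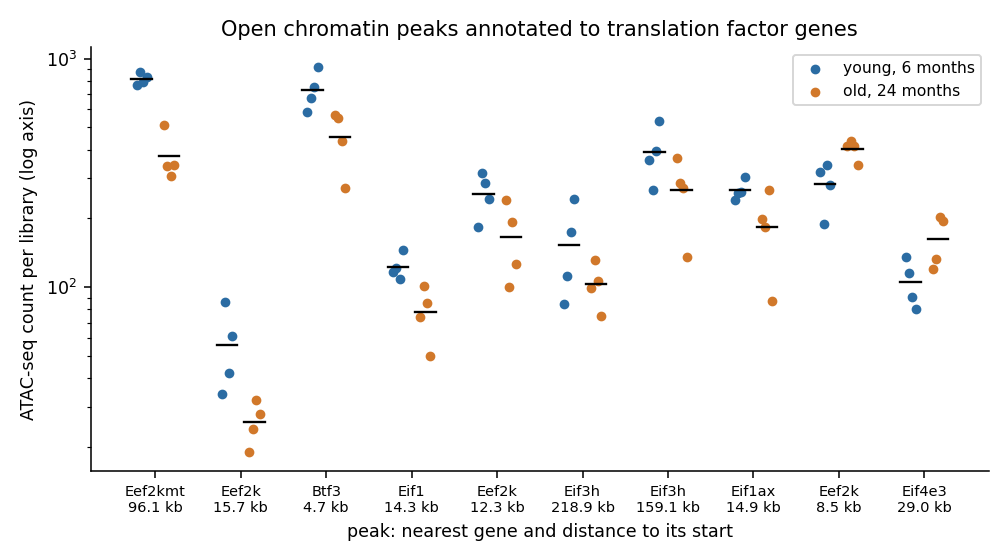
ATAC-seq counts on a log axis at the 10 listed peaks annotated to translation factor genes, labelled by gene and distance to the start in kb; blue points are the 4 young and orange points the 4 old libraries, and black bars are their means. Young and old points are fully apart at Eef2kmt, Btf3, Eif1 and the first Eef2k peak (15.7 kb), and overlap at the other 6.

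The 32 further genes of termination, recycling and control had H3K4me3 called lower at 28 of 28 promoters, with a median of −1.43, beside 97.9% of all genes. Pol2 was called lower at 12 of 14, with a median of −2.21, beside 87.6% of all genes, and the 2 not called were the helicase Ddx3x (−0.17, FDR 0.88) and Gcn1, an activator of Eif2ak4 (−0.43, FDR 0.698), in the authors' deposited table. Of 8 ATAC-seq peaks annotated to them, edgeR without scaling called 5 lower and 1 higher, beside 46.4% and 5.43% of all listed peaks.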

How the data were processed

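Per the submitters' processing notes, the RNA pipeline was STAR 2.5.2b on GRCm38.p5, then featureCounts, then DESeq2 1.22.2. The authors' RNA table gives a mean normalized signal over all libraries (called mean normalized count above), a log2 fold change with its SE, a Wald score, a p-value and an adjusted p, per the file headers. The same notes give BWA 0.7.12 and GRCm38 for ATAC-seq, whose deposited table holds, for each peak, every library's count with a log2 ratio and a −log10 p, per the file headers. ChIP-seq used BWA 0.7.15, MACS2 2.2.7.1 and DiffBind 2.14.0, per the submitters' processing notes, and the deposited tables give log2 mean normalized counts per age, their difference, a p-value and an FDR. That difference was turned to old over young here.

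Only ATAC-seq counts could be tested anew. The main test was edgeR 4.0.16 (quasi-likelihood, equal library sizes, two-sided, Benjamini-Hochberg over 7849 peaks) in R 4.3.3, since TMM scaling recentres a list selected on the contrast. The test was run on simulated counts with equal library sizes, most peaks unchanged and changes of both signs. The real list was selected on the contrast and has unequal totals, so the simulation does not cover that setting. DESeq2 1.42.0 was an alternative. Tables were read with Python 3.11.15, numpy 2.4.6, pandas 2.3.3 and scipy 1.17.1, and figures drawn with matplotlib 3.10.9. All pairs of ATAC-seq libraries differed beyond sampling noise (lowest chi-square per degree of freedom 10.8). Depth is unknown for RNA and ChIP-seq, and for ATAC-seq only the totals over listed peaks are known. The series calls the samples biological replicates.

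The members and gene lists were chosen with earlier results of these data known. Genes were named if they had RNA or ATAC-seq rows, a called H3K27me3 peak or one of the strongest H3K27me3 promoter peaks, 1 of the 5 lowest or highest fold changes for H3K4me3 or Pol2, or a place on a list of central factors.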

Additional observations from a re-analysis of the deposited data

Results flagged for a closer look

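Among 20 groups of 4 ATAC-seq libraries (10 peaks at 2 ages), 1 value stood apart from the other 3 of its group by Dixon's criterion, which chance meets in about 1 of 20 groups. It was the count of 514 in old replicate 1 at the Eef2kmt peak, where the other old libraries had 308 to 343. The peak was called lower in all 8 fits that left out 1 library, with edgeR FDRs from 0.00153 to 0.0133.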

How the results depend on the processing

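All listed peaks called lower and higher numbered 3643 and 426 without scaling, 55 and 1088 with TMM, 82 and 1082 with DESeq2's size factors, 755 and 91 with a replicate block, and 155 and 23 at an FDR under 0.01. Without 1 library, edgeR called 1409 to 3197 lower and 141 to 373 higher; the lower count fell by more than 1.5 times without young replicate 3 or 4 or old replicate 3 or 4. Of the 10 translation factor peaks, 3 were called lower without scaling, 1 with TMM, with DESeq2's size factors, with the replicate block and at an FDR under 0.01, and 1 to 3 without 1 library. The count was 1 without young replicate 3 or 4 or old replicate 3 or 4. Called higher were 0 without scaling or without any 1 library, 2 with TMM or DESeq2's size factors and 1 with DESeq2 size factors of 1. Eif1ax and both Eif3h peaks changed sign, to 0.0366, 0.0252 and 0.0166 under TMM and 0.0269, 0.0146 and 0.00477 under DESeq2's size factors. The Btf3 peak was called in 4 of the 8 fits without 1 library and the first Eef2k peak in 1.

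Replicate numbers did not pair the libraries: same-number correlations of deviations were −0.03, −0.11, 0.04 and −0.19. The numbers were therefore not used to pair samples, and the cause of the lower counts with the block was not tested.

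RNA genes called higher were 9, beside 38% of all listed genes, and 2 at an adjusted p under 0.01. Pol2 promoters called lower were 13, beside 87.6% of all genes, and 8 at an FDR under 0.01. Shares over all genes under 0.01 were not counted for RNA or Pol2, so these smaller counts have no background beside them. Relative to the median of all genes, the H3K4me3 median of −1.45 became −0.02 and the Pol2 median of −2.13 became 0.25, the reverse sign; averaging all promoter peaks of each gene gave −1.445 for H3K4me3. H3K27me3 genes called were 1 lower and 4 higher, and 0 in either direction with peaks within 1 kb only. Depth limits cannot be given for tables of group means.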
